A study of Mus musculus with 4 samples.

Results

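The genes described here are the cadherins and protocadherins, taken from the deposited single-cell table as every row whose symbol is Cdh followed only by digits or begins with Pcdh. The rule found 81 of 16600 genes, 16 Cdh and 65 Pcdh rows. Of the Pcdh rows, 54 belong to the Pcdha, Pcdhb and Pcdhg clusters and 11 are single genes. Single-cell (sc) RNA-Seq was run on cells positive for CD24, a surface protein of young neurons, and negative for CD45, a protein of blood-derived cells, sorted from the cortex of mouse fetuses at E18.5 on the C57BL/6J strain. There were 2 Setd5+/+ (WT) fetuses, libraries WT3 and WT6, and 2 fetuses heterozygous for the Setd5GFP allele, which the study used as a knockout and calls Setd5+/-, libraries Het5 and Het9. Each library came from 1 fetus, and the labels name no other allele or agent.

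Cadherins are calcium-dependent adhesion proteins that bind the same cadherin on a neighboring cell and are tied to the actin cytoskeleton inside the cell by catenins. Type I (classical) members such as Cdh2 hold the ventricular surface of the developing brain together, while type II members such as Cdh8 and Cdh10 mark subsets of neurons and regions of the forebrain. Single protocadherins fall into delta-1 and delta-2 groups, of which the delta-2 group can recruit the WAVE complex, a regulator of actin branching. The clustered protocadherins are made by choice of 1 promoter among many within a gene array, which gives neurons different surface identities.

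The sequences below are the start regions of 3 members that differed between lineages, Cdh8 in intermediate progenitor-like cells, Pcdh8 in deep-layer excitatory neuron-like cells and Pcdh17 in Lhx6 interneuron-like cells, and are shown so that these genes can be placed in the genome. They come from RefSeq on GRCm38.p6, where 19 member symbols had an entry, run 5′ to 3′ on the gene's strand from 250 bases before to 50 bases after the start, and start at the same base as the GENCODE M21 gene. Capitals mark a match to the E-box CAGATG, to a different E-box written CAGCTG, to the homeobox core TAATTA or to the TATA box TATAAA, each searched on both strands.
Cdh8, chr8:99416422-99416721, minus strand: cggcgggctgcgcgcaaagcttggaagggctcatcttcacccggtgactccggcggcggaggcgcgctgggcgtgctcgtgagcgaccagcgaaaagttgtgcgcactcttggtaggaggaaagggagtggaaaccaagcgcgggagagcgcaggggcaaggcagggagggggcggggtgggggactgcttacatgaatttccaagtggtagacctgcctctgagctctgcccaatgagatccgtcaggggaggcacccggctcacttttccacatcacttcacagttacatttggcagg
Pcdh8, chr14:79771263-79771562, minus strand: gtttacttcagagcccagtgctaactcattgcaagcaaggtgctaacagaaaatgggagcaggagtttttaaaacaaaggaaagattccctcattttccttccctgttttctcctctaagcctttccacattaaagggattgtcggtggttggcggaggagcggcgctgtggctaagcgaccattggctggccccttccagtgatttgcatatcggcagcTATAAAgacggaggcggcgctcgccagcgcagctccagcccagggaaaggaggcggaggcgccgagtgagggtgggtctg
Pcdh17, chr14:84443313-84443612, plus strand: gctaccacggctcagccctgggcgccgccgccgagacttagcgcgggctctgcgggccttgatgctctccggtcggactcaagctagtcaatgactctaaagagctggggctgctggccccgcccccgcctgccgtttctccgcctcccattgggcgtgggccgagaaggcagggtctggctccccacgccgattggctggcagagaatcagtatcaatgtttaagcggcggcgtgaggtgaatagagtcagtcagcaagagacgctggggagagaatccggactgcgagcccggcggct
Of these, Pcdh8 alone held a motif, a single TATAAA, which 13.6% of the 32851 promoters of this length hold on either strand. The first E-box was found in 17.2% of all promoters, the second in 16.3% and the homeobox core in 5.29%, and none of these 3 windows held any of them. The GC content was 62.3% for Cdh8, 54.3% for Pcdh8 and 65% for Pcdh17, against a mean of 53.8% over all promoters.

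The 4 libraries held 1445 to 1954 cells and 8205330 to 11742956 unique molecular identifiers (UMIs, 1 for each captured transcript), with a median of 5398 to 5997 UMIs per cell. Setd5, the targeted gene, averaged 1.18 and 1.07 (WT) and 0.54 and 0.586 (Setd5+/-) counts per 10000 UMIs. Cells were sorted into types by marker genes that include no member, such as Eomes and Neurog2 for intermediate progenitor-like cells, Neurod2 or Neurod6 with Bcl11b or Fezf2 for deep-layer excitatory neuron-like cells, Lhx6 with Dlx and Gad genes for interneuron-like cells, and Ebf1 or Isl1 with them for striatal neuron-like cells. The gates placed 5210 of 6562 cells in 13 neural types, and 9 types had at least 20 cells in every library and entered the tests. Values are given for 8 of these, and statements on order or on the highest type cover those 8. Ptprc, which encodes CD45, reached 5.2 to 7 counts per 10000 in 103 immune cell-like cells that had passed the sort, and 127 of 133 melanocyte-like and 80 of those immune cell-like cells carried a barcode found in all 4 libraries. None of the 5210 cells in neural types did. The comparisons of cell types use neural types alone, and those of genotypes in all cells are given with and without the 224 cells whose barcode was in all 4 libraries. Cd24a, which encodes CD24, averaged 19.7 to 21.1 in deep-layer cells and 2.51 to 2.74 in radial glia-like cells.

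The members gave 23464 UMIs, of which the 4 type I members held 47.5%, the 4 delta-1 members 14.5%, the 5 delta-2 members 14.4%, the 10 type II members 9.19%, Cdh13 with Cdh23 1.91% and Pcdh15 with Pcdh20 1.11%, while the Pcdhg, Pcdhb and Pcdha clusters held 6.70%, 4.01% and 0.686%. Of the 81, 12 passed the filter for tests across cell types, a mean of 0.1 counts per 10000: Cdh2 and Cdh4 (type I), Cdh8 and Cdh10 (type II), Cdh13 (the cadherin anchored in the membrane by a lipid), Pcdh7 and Pcdh9 (delta-1), Pcdh8, Pcdh10, Pcdh17 and Pcdh19 (delta-2) and Pcdhga12 (clustered). Cdh13 and Pcdh19 passed it only through 1 type each, for Pcdh19 radial glia-like cells, without which its mean was 0.094. The other 69 fell below it, and Pcdha8 had no UMI in any cell. Each type was compared with the mean of the other 8 with limma on log2(mean counts per 10000 + 0.1) with library as a block, a scale that understates changes of low genes. Of the 96 pairs of member and type described, 54 were called at an adjusted p under 0.05, 23 higher and 31 lower. Of all pairs of gene and type, 34.9% were called. The 54 include the radial glia-like call of Pcdh19, which the filter favored. Each of the 12 was called in at least 1 type, as were 86.4% of all genes tested.

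**Figure D1:**
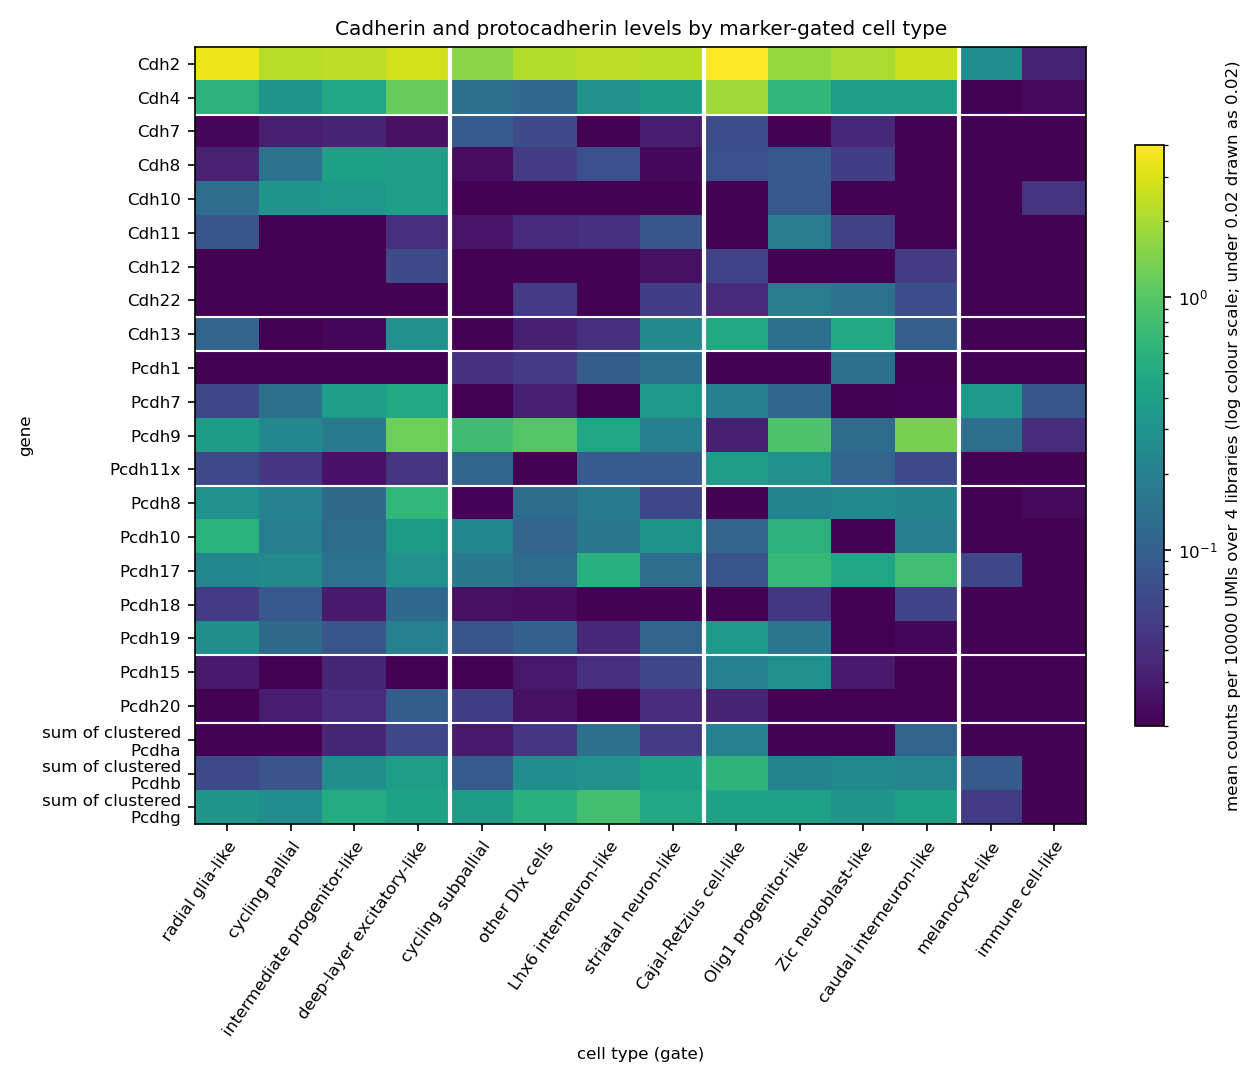
Mean level of 20 members and of the 3 summed clusters (rows) in 14 marker-gated cell types (columns) over the 4 libraries, in counts per 10000 UMIs on a log color scale. White lines divide pallial types, drawn with radial glia-like cells, whose gate sets no side, from subpallial, untested neural and non-neural types. Cdh8 and Cdh10 are bright in intermediate progenitor-like and deep-layer cells (means of 0.336 to 0.405). Cdh10 is dark (0.017 or lower) in the 4 tested subpallial types.

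Among type I members, Cdh2 (N-cadherin) was highest in radial glia-like cells and lowest in cycling subpallial progenitor-like cells. Radial glia-like cells held 3.76 and 3.38 (WT) and 3.71 and 3.05 (Setd5+/-) counts per 10000. In cycling subpallial cells, the values were 1.5 and 1.49 (WT) and 1.73 and 1.49 (Setd5+/-), so that the 4 radial glia-like values lay above all 4 of these and above the 4 deep-layer values, the next type in order (2.82 to 2.96). Against the other types, Cdh2 was higher (log2 fold change 0.58, SE 0.09, adjusted p = 1.24e-07) in radial glia-like cells, lower (log2 fold change -0.67, SE 0.06, adjusted p = 4.2e-14) in cycling subpallial and higher (log2 fold change 0.29, SE 0.06, adjusted p = 5.57e-05) in deep-layer cells.

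Cdh4 (R-cadherin) was highest in deep-layer excitatory neuron-like cells. They held 1.26 and 1.03 (WT) and 0.981 and 1.44 (Setd5+/-) counts per 10000, with every library above every radial glia-like value, the next type in order (0.437 to 0.793). Other Dlx cells, the subpallial cells without a more specific marker, held 0.032 and 0.178 (WT) and 0.107 and 0.174 (Setd5+/-), with every library below every deep-layer value. Cdh4 was higher than in the other types in deep-layer cells (1.48, adjusted p = 6.84e-17) and lower in other Dlx (-1.41, adjusted p = 1.37e-09) and cycling subpallial cells (-1.24, adjusted p = 4.96e-13). In radial glia-like cells it was higher (log2 fold change 0.49, SE 0.18, adjusted p = 0.0196), a call that was lost under 5 of the 13 alternative settings tried (adjusted p = 0.0503 to 0.196), among them without WT3 (0.35, adjusted p = 0.0979) and without Het5 (0.36, adjusted p = 0.196). Cdh4 lies on chromosome 2 from 179442431 to 179899373 (GRCm38).

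Cdh8 and Cdh10, the type II members that passed the filter, were highest in pallial types. Cdh8 (chromosome 8, 99024471 to 99416471) held 0.453 and 0.374 (WT) and 0.444 and 0.347 (Setd5+/-) counts per 10000 in intermediate progenitor-like cells and 0.36 and 0.39 (WT) and 0.416 and 0.368 (Setd5+/-) in deep-layer cells, and these types overlapped. Radial glia-like cells held 0.0668 and 0.018 (WT) and 0.0465 and 0 (Setd5+/-), and each library there lay below each one of both types. Against the other types, Cdh8 was higher (log2 fold change 1.29, SE 0.10, adjusted p = 5.5e-19) in intermediate progenitor-like and 1.23 (adjusted p = 3.12e-15) in deep-layer cells. It was lower in radial glia-like (-0.90, adjusted p = 4.58e-06), cycling subpallial (-0.98, adjusted p = 6e-11) and other Dlx cells (-0.69, adjusted p = 0.000752), the last of these calls lost with a pseudocount of 0.01 (-0.98, adjusted p = 0.0779). Striatal neuron-like cells held 2 UMIs of Cdh8, and the other 8 types together held 647, a level 9.26 times as high (exact 95% interval of counting error 2.55 to 76.6). That call (adjusted p = 0.00849) was lost without WT3 (adjusted p = 0.086) and without WT6 (adjusted p = 0.064).

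Cdh10 (chromosome 15, 18818947 to 19014236) held 0.552 and 0.331 (WT) and 0.348 and 0.296 (Setd5+/-) counts per 10000 in deep-layer cells, 0.37 and 0.292 (WT) and 0.311 and 0.369 (Setd5+/-) in intermediate progenitor-like cells and 0.559 and 0.196 (WT) and 0.258 and 0.242 (Setd5+/-) in cycling pallial progenitor-like cells. WT3 was the highest library in each of these, by 0.37 to 0.369 against Het9 in the second, and the 3 types overlapped. Other Dlx cells, 582 in number, held 1 UMI, and the other 8 types together held 539, a level 49.1 times as high (exact 95% interval of counting error 8.77 to 1942). Lhx6 interneuron-like and striatal neuron-like cells also held 1 UMI each, with a level in the other types 15.8 (2.82 to 624) and 15.4 (2.76 to 611) times as high. Cdh10 was higher (log2 fold change 1.38, SE 0.12, adjusted p = 2.67e-16) in deep-layer cells, 1.24 (adjusted p = 4.08e-17) in intermediate progenitor-like and 1.08 (adjusted p = 2.01e-05) in cycling pallial cells. It was lower in cycling subpallial cells, which held 9 UMIs (-0.90, adjusted p = 5.02e-09), and in other Dlx cells (adjusted p = 3.87e-07). Without WT6 the calls in Lhx6 (adjusted p = 0.0047) and striatal cells (adjusted p = 0.00733) moved just past the threshold, to adjusted p = 0.0504 and 0.0509, and the Lhx6 call also did with gates raised by 1 UMI (adjusted p = 0.0509).

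**Figure D2:**
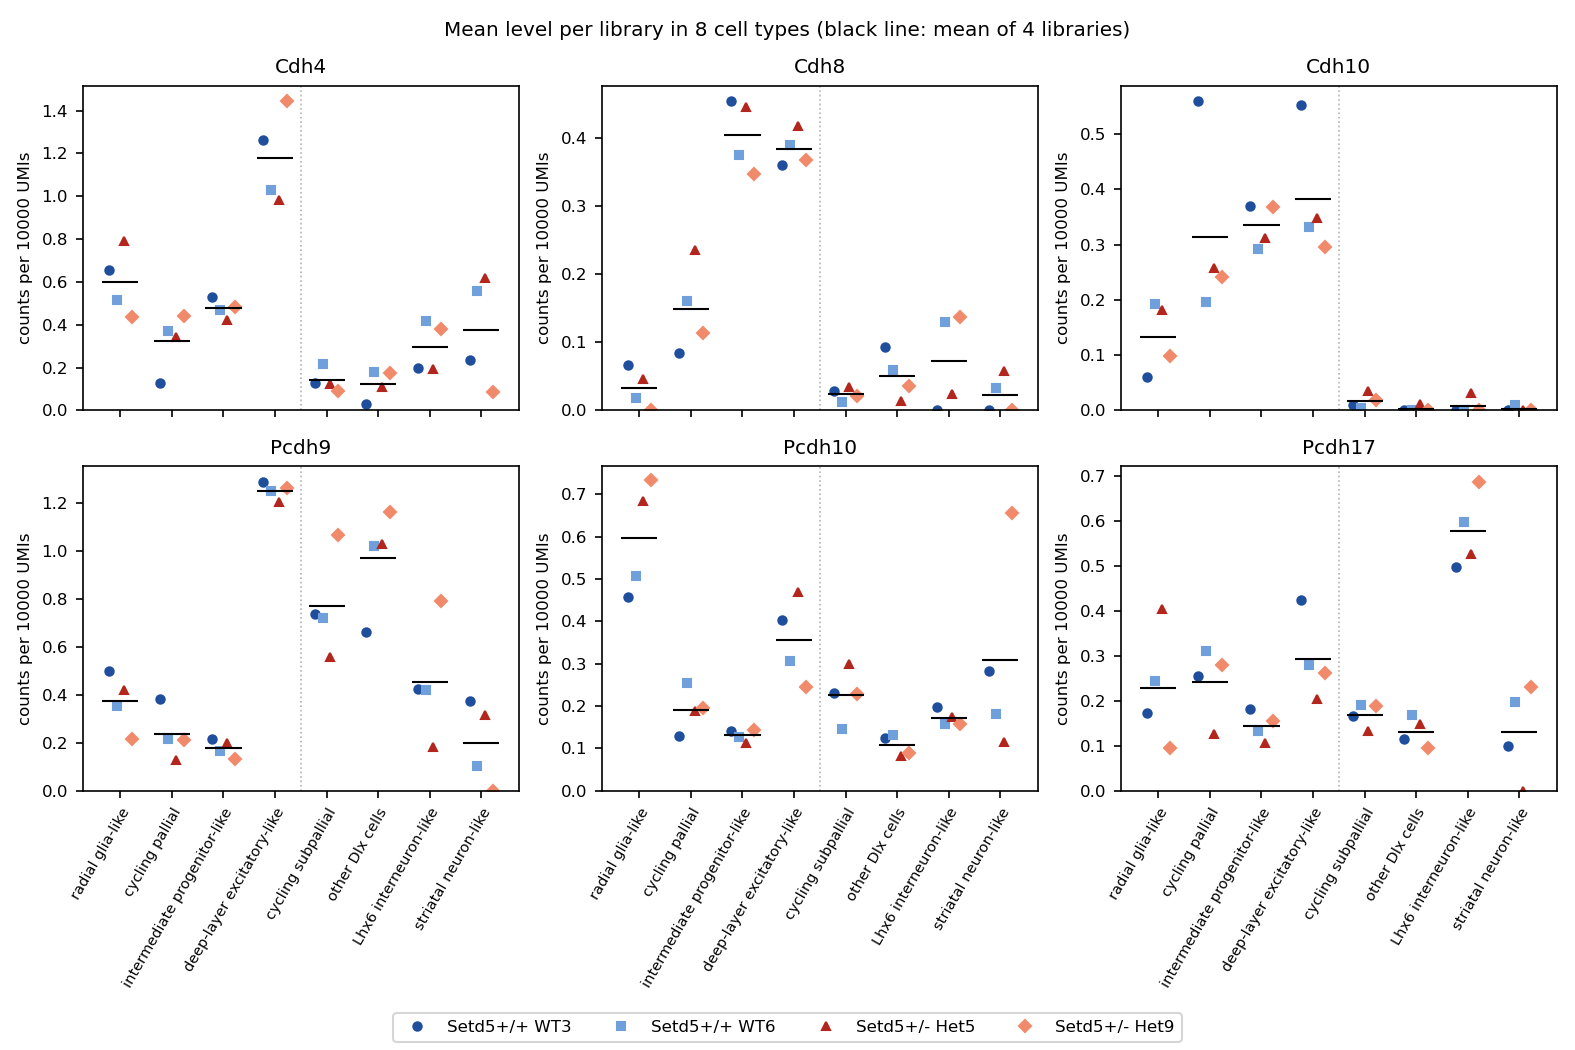
Level of 6 members (panels) in each of the 4 libraries (points) over 8 tested cell types, in counts per 10000 UMIs. A black line is the mean of the libraries. A dotted line parts subpallial types from pallial types and radial glia-like cells, whose gate sets no side. The 4 Pcdh17 points of Lhx6 interneuron-like cells (0.496 to 0.687) lie above those of every other type shown, and the Cdh10 points are near 0 in all 4 subpallial types.

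Cdh13 (T-cadherin, chromosome 8, 118283733 to 119324921) was highest in deep-layer cells, with 0.208 and 0.3 (WT) and 0.258 and 0.382 (Setd5+/-) counts per 10000. Intermediate progenitor-like cells held 0.0314 and 0.0147 (WT) and 0.0173 and 0.0237 (Setd5+/-), below every deep-layer library. Striatal neuron-like cells held 0.135 and 0.44 (WT) and 0.283 and 0.107 (Setd5+/-), a difference from the other types that was not called (0.89, adjusted p = 0.0744). Cdh13 was higher (log2 fold change 1.20, SE 0.13, adjusted p = 8.95e-12) in deep-layer cells and lower at -0.66 (adjusted p = 1.65e-06) in intermediate progenitor-like cells. It was also lower in cycling subpallial (-0.73, adjusted p = 1.26e-05), other Dlx (-0.55, adjusted p = 0.0357) and cycling pallial cells, the last with 2 UMIs (adjusted p = 0.00231) against a level in the other types 8.1 (2.22 to 67.2) times as high. The call in other Dlx cells was lost under 6 of 12 settings (adjusted p = 0.0584 to 0.271), among them without Het5 (-0.42, adjusted p = 0.271). Cdh13 passed the filter only through a type not reported here, whose level stays in the mean behind each of these lower calls.

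The delta-1 member Pcdh9 (chromosome 14, 93013410 to 93890679) was called in 7 of 8 types, as was Cdh10, the most of any member. Deep-layer cells held 1.29 and 1.25 (WT) and 1.2 and 1.26 (Setd5+/-) counts per 10000. Other Dlx cells held 0.663 and 1.02 (WT) and 1.03 and 1.16 (Setd5+/-), and intermediate progenitor-like cells 0.216 and 0.167 (WT) and 0.2 and 0.134 (Setd5+/-). Every intermediate progenitor-like value lay below every value of both other types. Pcdh9 was higher (log2 fold change 1.31, SE 0.12, adjusted p = 8.8e-15) in deep-layer cells, 0.91 (adjusted p = 4.62e-05) in other Dlx and 0.57 (adjusted p = 0.00015) in cycling subpallial cells. It was lower in intermediate progenitor-like (-1.26, adjusted p = 1.29e-16), cycling pallial (-1.01, adjusted p = 0.000121), striatal (-1.42, adjusted p = 0.000744) and radial glia-like cells (-0.43, adjusted p = 0.0392). The other Dlx call was lost with gates set on cells thinned to 3000 UMIs (0.34, adjusted p = 0.0878), and the cycling subpallial call without weights (adjusted p = 0.0608). The radial glia-like call was lost under 6 of 13 settings (adjusted p = 0.0984 to 0.272), among them without WT6 (adjusted p = 0.127) and without Het9 (-0.25, adjusted p = 0.235).

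Pcdh7, the other delta-1 member in the tests (chromosome 5, 57717967 to 58133230), differed between the striatal and Lhx6 neuron types. Lhx6 interneuron-like cells held no UMI of Pcdh7 in any of the 4 libraries (216 cells, 849872 UMIs). Striatal neuron-like cells held 0.215 and 0.431 (WT) and 0 and 0.753 (Setd5+/-) counts per 10000, with none in Het5. Deep-layer cells held 0.602 and 0.511 (WT) and 0.504 and 0.376 (Setd5+/-), all 4 above the radial glia-like values of 0.0351 to 0.0883. With 3 counts over the 4 libraries as the floor, the summed level was at least 6.93-fold higher in the other 8 types together than in Lhx6 cells, and at least 8.85-fold higher in striatal neuron-like cells. Pcdh7 was higher (log2 fold change 1.52, SE 0.13, adjusted p = 7.56e-17) in deep-layer and 1.16 (adjusted p = 8.95e-15) in intermediate progenitor-like cells. It was lower in Lhx6 (adjusted p = 0.000347), cycling subpallial (-1.15, adjusted p = 1.9e-11), other Dlx (-0.94, adjusted p = 4.36e-05) and radial glia-like cells (-0.59, adjusted p = 0.00621). The radial glia-like call was lost with a pseudocount of 0.01 (-0.53, adjusted p = 0.239) and without a filter (adjusted p = 0.0625). Pcdh1 and Pcdh11x, the remaining delta-1 members, were below the filter, with 77 and 222 UMIs. Pcdh1 reached its highest mean in striatal neuron-like cells, 0.136 ± 0.095 counts per 10000 (SD, 4 libraries).

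Of the delta-2 members, Pcdh10 and Pcdh19 were highest in radial glia-like cells. Pcdh10 (chromosome 3, 45378398 to 45435623) held 0.458 and 0.506 (WT) and 0.685 and 0.733 (Setd5+/-) counts per 10000 there and 0.14 and 0.127 (WT) and 0.112 and 0.144 (Setd5+/-) in intermediate progenitor-like cells, without overlap. The next type in order, deep-layer cells, held 0.244 to 0.470 and overlapped the radial glia-like values. Pcdh10 was higher (log2 fold change 1.22, SE 0.18, adjusted p = 2.31e-08) in radial glia-like and 0.53 (adjusted p = 0.000156) in deep-layer cells, and lower in other Dlx (-0.73, adjusted p = 0.00087) and intermediate progenitor-like cells (-0.55, adjusted p = 6.97e-06). In striatal neuron-like cells, Het9 held 0.655 and the other 3 libraries 0.115 to 0.283. Pcdh19, an X-linked gene (133582860 to 133688987), held 0.237 and 0.356 (WT) and 0.261 and 0.269 (Setd5+/-) in radial glia-like cells and 0.216 and 0.182 (WT) and 0.246 and 0.155 (Setd5+/-) in deep-layer cells. Since the radial glia-like level took Pcdh19 past the filter, no test of it is given there. In deep-layer cells Pcdh19 was higher (log2 fold change 0.66, SE 0.11, adjusted p = 1.02e-06). For this call and the next, the mean of the other types holds that radial glia-like level. In Lhx6 cells, where WT6 held 4 UMIs and the other libraries none, a lower call (-0.74, adjusted p = 0.0441) was lost under 6 of 13 settings (adjusted p = 0.0941 to 0.236), among them without WT3 (adjusted p = 0.185), without Het5 (adjusted p = 0.236) and without Het9 (adjusted p = 0.127).

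Pcdh17 and Pcdh8, also delta-2 genes, were highest in different neurons. Pcdh17 (chromosome 14, 84443563 to 84539002) held 0.496 and 0.598 (WT) and 0.526 and 0.687 (Setd5+/-) counts per 10000 in Lhx6 interneuron-like cells. Striatal neuron-like cells held 0.0992 and 0.197 (WT) and 0 and 0.231 (Setd5+/-) and other Dlx cells 0.114 and 0.168 (WT) and 0.149 and 0.0942 (Setd5+/-). All 4 Lhx6 values exceeded all values of the second type in order, deep-layer cells (0.204 to 0.425). Caudal interneuron-like cells, described below and too few for a test, held more Pcdh17 than Lhx6 cells in each library. Pcdh17 was higher (log2 fold change 1.26, SE 0.29, adjusted p = 0.000891) in Lhx6 cells, and no other member was called higher there, while 6.27% of genes were. With gates raised by 1 UMI the value was 0.85 (adjusted p = 0.17), and with gates on thinned cells 0.87 (adjusted p = 0.066). It was higher at 0.36 (adjusted p = 0.0138) in deep-layer cells, where the call was lost without WT3 (0.22, adjusted p = 0.243) and without weights per cell type (adjusted p = 0.217). It was lower at -0.39 (adjusted p = 0.00171) in intermediate progenitor-like cells, a call also lost without weights (adjusted p = 0.203).

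Pcdh8 (chromosome 14, 79766775 to 79771312) held 0.533 and 0.598 (WT) and 0.745 and 0.787 (Setd5+/-) counts per 10000 in deep-layer cells, and all 4 values lay above the radial glia-like ones, the next type in order (0.184 to 0.498). Cycling subpallial cells held 0.0185 and 0.00989 (WT) and 0 and 0.0559 (Setd5+/-), and the 4 values were below every deep-layer value. Pcdh8 was higher (log2 fold change 1.53, SE 0.13, adjusted p = 4.97e-17) in deep-layer cells and lower at -1.47 (adjusted p = 2.33e-15) in cycling subpallial cells. It was also lower in intermediate progenitor-like cells (-0.45, adjusted p = 0.000359), a call lost with a pseudocount of 0.01 (adjusted p = 0.156) and without weights (adjusted p = 0.12), and in striatal cells (-1.02, adjusted p = 0.0246). The striatal call was lost under 5 of 11 settings, without WT3 (adjusted p = 0.0563), WT6 (adjusted p = 0.077) or Het9 (adjusted p = 0.145), with a pseudocount of 0.01 (adjusted p = 0.12) and with summed UMIs (adjusted p = 0.0584). Pcdh18, the fifth delta-2 gene, had 206 UMIs, was below the filter, and reached 0.121 ± 0.0178 counts per 10000 (SD, 4 libraries) in deep-layer cells.

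Read by cell type, deep-layer cells had 11 of 12 members called higher, all but Pcdhga12 (0.01, adjusted p = 0.975), against 28.9% of genes. The median log2 fold change was 1.21 over the members and 0.05 over all genes. Radial glia-like cells had 4 members higher (26.3% of genes) and 3 lower (24.2%). The 4 include Pcdh19, which passed the filter only through its level there. Intermediate progenitor-like cells had 4 higher (25.1%) and 5 lower (22.6%). In cycling pallial cells 1 was higher (17.1%) and 3 were lower (14.6%). Cycling subpallial cells had 1 member higher (21.3%) and 7 lower (31.8%), and other Dlx cells 1 higher (8.09%) and 6 lower (8.3%). Lhx6 cells had 1 higher (6.27%) and 3 lower (10.1%), and striatal cells 0 higher (4.95%) and 4 lower (8.4%). Lhx6, striatal and other Dlx cells had the lowest median UMI count per cell, 3834 to 4256, and cycling pallial cells the highest, 7575, and the part of depth in these counts was not tested.

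A contrast within the same model compared radial glia-like with intermediate progenitor-like cells. The radial glia-like gate set no pallial or subpallial side, so whether the pair is a step of the pallial lineage was not tested. Between radial glia-like and intermediate progenitor-like cells 10 of 12 members were called, against 46.4% of genes. Pcdh19 is 1 of the 10 and is not described further, since its radial glia-like level took it past the filter. Radial glia-like cells had more Pcdh10 (1.57, adjusted p = 2.19e-11), Pcdh8 (0.76, adjusted p = 0.000594), Pcdh9 (0.73, adjusted p = 0.000706), Cdh13 (0.66, adjusted p = 0.00516) and Cdh2 (0.55, adjusted p = 9.92e-07). Intermediate progenitor-like cells had more Cdh8 (-1.95, adjusted p = 4.41e-16), Pcdh7 (-1.56, adjusted p = 1.44e-10), Cdh10 (-0.94, adjusted p = 8.55e-06) and Pcdhga12 (-0.49, adjusted p = 0.0388), where the sign is that of radial glia-like minus intermediate progenitor-like cells. Without weights per cell type the Pcdh9 (adjusted p = 0.0765) and Cdh13 calls (adjusted p = 0.0968) were lost, the latter also without a filter (adjusted p = 0.0752). The Pcdhga12 call was lost under 7 of 13 alternative settings (adjusted p = 0.0733 to 0.279), among them without WT3 (adjusted p = 0.095), without WT6 (adjusted p = 0.19) and without Het5 (adjusted p = 0.095).

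Among subpallial neurons, between striatal and Lhx6 cells 2 members were called (2.76% of genes), Pcdh7 higher in striatal cells (adjusted p = 0.00563) and Pcdh17 lower (-1.68, adjusted p = 0.0106). Neither was called without WT6 (adjusted p = 0.14 and 0.07), Pcdh17 was not called without WT3 (adjusted p = 0.0986) or Het5 (adjusted p = 0.0957) or with a pseudocount of 0.01 (adjusted p = 0.0509), and Pcdh7 was not without Het9 (adjusted p = 0.082).

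Patterns over the 32 points of 8 types in 4 libraries are given as a description, since types share a library and libraries share a type. The gene most like Cdh10 among the 12 was Cdh8 (Pearson r = 0.76), followed by Cdh4 (0.594) and Pcdh7 (0.593), and the next most like Cdh8 after Cdh10 were Cdh4 (0.611) and Pcdh7 (0.608). For Pcdh9 it was Pcdh8 (0.36), then Cdh13 (0.21) and Pcdh19 (0.11).

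The clustered protocadherins were read as sums per cluster, because 10 of 11 Pcdha and 21 of 22 Pcdhg members share their last exon with other members on the same strand, and a tag near the 3′ end may not tell them apart. Only 2 of 21 Pcdhb members share one. Pcdhb was lowest in radial glia-like and cycling cells, with 0.0961 and 0.0428 (WT) and 0.0824 and 0.0408 (Setd5+/-) summed counts per 10000 in radial glia-like cells. It held 0.258 and 0.308 (WT) and 0.272 and 0.288 (Setd5+/-) in intermediate progenitor-like cells, and 0.388 and 0.4 (WT) and 0.392 and 0.369 (Setd5+/-) in deep-layer cells, where every library lay above every library of the former 2 types. Cycling subpallial cells held 0.0781 to 0.105. Pcdhg differed less, from 0.271 ± 0.0733 in cycling pallial to 0.81 ± 0.5 in Lhx6 cells (mean ± SD, 4 libraries), where Het9 held 1.5 and the others 0.437 to 0.847. Pcdha summed to 0 in all 4 libraries of radial glia-like cells, and to 0.0622 ± 0.0343 in deep-layer cells.

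**Figure D3:**
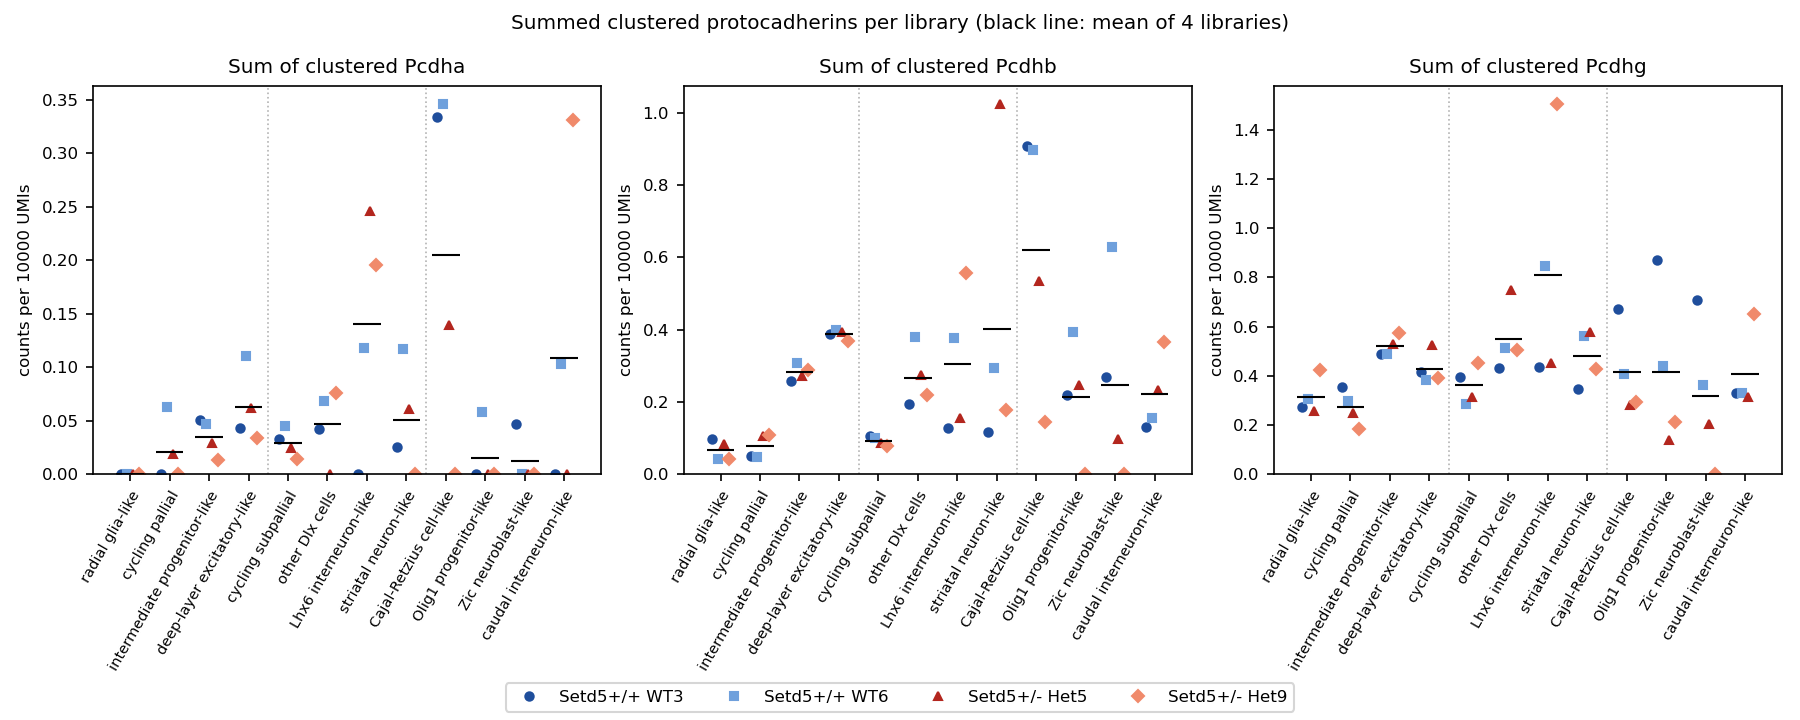
Summed counts per 10000 UMIs of the Pcdha, Pcdhb and Pcdhg clusters (panels) in each library (points) over 12 neural types, with the mean of the libraries as a black line. Pcdhb lies at or below 0.107 in radial glia-like, cycling pallial and cycling subpallial cells and between 0.369 and 0.400 in deep-layer cells.

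The clustered members of highest mean were Pcdhga12 (0.132 ± 0.0174 counts per 10000 in all cells), the second row of symbol Pcdhga8 (0.0813 ± 0.00594) and Pcdhgc5 (0.0653 ± 0.00966; SD, 4 libraries). Pcdhga12 and Pcdhgc5 share their last exon with other members, so their UMIs may include those of others, and this holds for each Pcdhga12 value and call given here. Pcdhga12 was higher (log2 fold change 0.28, SE 0.12, adjusted p = 0.0394) in intermediate progenitor-like and lower (log2 fold change -0.71, SE 0.24, adjusted p = 0.0153) in cycling pallial cells. The first call was lost under 7 of 13 settings (adjusted p = 0.0584 to 0.51), among them without WT3 (adjusted p = 0.191), WT6 (adjusted p = 0.0618) or Het5 (adjusted p = 0.104). The second was lost without WT3 (adjusted p = 0.0972), without Het9 (adjusted p = 0.0737) and without a filter (adjusted p = 0.073). Of 6562 cells, 2057 (31.3%) had a UMI of any clustered member, at a median of 5730 UMIs per cell. None of 103 immune cell-like cells had one, at a median of 1931 UMIs, but 80 of them carried a barcode found in all 4 libraries. In the other 23, with a median of 1500 UMIs, a count of 0 allows up to 13% of cells with a UMI, by counting error only.

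The 16 single members below the filter were described by their counts, and the calls given for them come from the same model without a filter, in which 19 pairs of these members and a type were called, 12 higher and 7 lower, over 11 members. Of 112 such pairs tested that is 17%, against 21.1% of all pairs of gene and type. Among type II genes, Cdh7 (157 UMIs) was highest in cycling subpallial cells, with 0.0656 and 0.0775 (WT) and 0.14 and 0.0804 (Setd5+/-) counts per 10000, and was called higher there (0.60, adjusted p = 1.42e-06) and in other Dlx cells (0.38, adjusted p = 0.0269). Cdh12 had 88 UMIs, of which deep-layer cells held 32, and was called higher in deep-layer (0.49, adjusted p = 0.000193) and lower in intermediate progenitor-like cells (-0.23, adjusted p = 0.0491). Cdh11 (138 UMIs), Cdh22 (68 UMIs) and Cdh24 (65 UMIs) stayed at a mean of 0.0813 or less in each of the 8 types, and Cdh6 (13 UMIs), Cdh19 (16 UMIs) and Cdh20 (16 UMIs) were rarer. Cdh22 was called higher in other Dlx (0.44, adjusted p = 0.00148) and lower in deep-layer cells (-0.21, adjusted p = 0.0195), Cdh11 lower in intermediate progenitor-like (-0.32, adjusted p = 0.0254) and Cdh6 higher in radial glia-like cells (0.28, adjusted p = 3.31e-05). The delta-2 gene Pcdh18 (0.75, adjusted p = 1.39e-08) and Pcdh20 (171 UMIs; 0.66, adjusted p = 1.10e-08) were called higher in deep-layer cells, and Pcdh1 in striatal neuron-like cells (0.85, adjusted p = 0.0183). Pcdh18 was also higher in cycling pallial cells (0.47, adjusted p = 0.0173), and Pcdh20 was higher in cycling subpallial (0.25, adjusted p = 0.00981) and lower in radial glia-like cells (-0.33, adjusted p = 0.0334). Pcdh1 was lower in deep-layer (-0.37, adjusted p = 0.00795) and intermediate progenitor-like cells (-0.40, adjusted p = 0.0019). Pcdh11x was called higher in cycling subpallial cells (0.54, adjusted p = 0.00276), and Pcdh15, a gene of hair cell links, had 90 UMIs and was lower there (-0.27, adjusted p = 0.0453). Cdh1 (E-cadherin, an epithelial cadherin) had 4 UMIs, all in immune cell-like cells, Cdh15 had 3 UMIs, and Cdh23 had 5, with a higher call in deep-layer cells (0.09, adjusted p = 5.08e-05) that rests on those 5 UMIs at most.

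In the 4 neural types with too few cells for a test, values are given without one. Cajal-Retzius cell-like cells, early-born neurons of the cortical surface (42 cells), held 1.64 and 2 (WT) and 1.87 and 2.09 (Setd5+/-) counts per 10000 of Cdh4, and every library lay above the deep-layer values. Their Cdh2 level was 3.97 ± 1, and Pcdh9 was at 0 in 3 of the 4 libraries. Caudal interneuron-like cells (87 cells) held 0.657 and 0.752 (WT) and 1.01 and 0.763 (Setd5+/-) of Pcdh17 and 1.07 to 1.80 of Pcdh9. In each library their Pcdh17 level was above that of Lhx6 cells. Zic neuroblast-like cells (90 cells, of which Het9 gave 3) held 0.505 and 0.611 (WT) and 0.831 and 0 (Setd5+/-) of Cdh13. Olig1 progenitor-like cells, of the oligodendrocyte lineage (35 cells), ranged from 0.240 to 0.936 for Pcdh10 and from 0 to 1.41 for Pcdh17.

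The partners of cadherins were taken from lists set apart from the members. Of 5 catenins tested, Ctnna1 (alpha-E-catenin) and Ctnna2 (alpha-N-catenin) were called in opposite directions in both intermediate progenitor-like and deep-layer cells. Ctnna1 held 0.707 to 0.781 counts per 10000 in intermediate progenitor-like and 0.174 to 0.273 in deep-layer cells, and Ctnna2 0.229 to 0.347 and 0.816 to 1.05. Against the other types, Ctnna1 was higher in intermediate progenitor-like (0.44, adjusted p = 2.82e-06) and lower in deep-layer cells (-1.13, adjusted p = 4.07e-17). Ctnna2 was lower in intermediate progenitor-like (-1.0, adjusted p = 1.84e-17) and higher in deep-layer cells (0.65, adjusted p = 1.69e-08). In deep-layer cells 4 catenins were higher (28.9% of all genes) and 1 was lower (21.4%), and in intermediate progenitor-like cells 3 were higher (25.1%) and 2 lower (22.6%). Between radial glia-like and intermediate progenitor-like cells, Ctnna1 (0.55, adjusted p = 0.000665) and Ctnnd2 (1.02, adjusted p = 1.82e-05) were higher in radial glia-like cells. Of 8 atypical cadherins and calsyntenins tested, 6 were called in that contrast, 3 in each direction, where 46.4% of all genes were called. Fat1 (1.20, adjusted p = 1.24e-06) and Fat4 (1.19, adjusted p = 2.95e-08), giant cadherins of growth control, and Clstn1 (0.54, adjusted p = 0.00151), a calsyntenin of synapses, were higher in radial glia-like cells. Celsr2 (-1.37, adjusted p = 1.05e-13) and Celsr3 (-0.96, adjusted p = 1.3e-05), seven-pass cadherins of planar polarity, and Dchs1 (-0.93, adjusted p = 1.81e-05) were lower. Of the 7 WAVE complex genes, 3 were called in that contrast, against the same 46.4% of genes, Nckap1 (0.66, adjusted p = 4.15e-05) and Brk1 (0.26, adjusted p = 0.00786) higher and Cyfip2 (-1.50, adjusted p = 9.84e-13) lower. The 6 genes of protocadherin promoter choice moved in both directions. Intermediate progenitor-like cells had 3 of them lower (22.6% of all genes), cycling subpallial cells 4 higher (21.3%), and cycling pallial cells 3 higher (17.1%) and 1 lower (14.6%). In deep-layer (21.4%) and radial glia-like cells (24.2%) 2 each were lower and none higher, in other Dlx cells 1 was lower (8.3%), and in Lhx6 and striatal cells none was called. Ctcf, the insulator protein that loops these promoters, was lower in intermediate progenitor-like (-0.35, adjusted p = 3.32e-07) and radial glia-like cells (-0.50, adjusted p = 1.74e-05) and higher in cycling subpallial (0.72, adjusted p = 3.19e-14) and cycling pallial cells (0.32, adjusted p = 0.0264). Neither of the 2 sheddases tested was called in either contrast of a pair of types, and no gene of the 5 lists was called between genotypes, in all cells or within any of the 8 types.

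Between genotypes, no member was called. In all cells 0 of 12 members passed an adjusted p under 0.05 with limma, against 0.086% of 8137 genes (7), and 3 had an unadjusted p under 0.05, a share of 25% against 4.34% of all genes. Within types, 0 of 77 pairs of member and type were called (0.0714% of all pairs of gene and type), and 5 pairs (6.49%) had an unadjusted p under 0.05, against 4.74% of all pairs. Of the 77 pairs, 9 passed the filter on low values only through the genotype with the higher mean, among them 3 of these 5. In simulated data the same test recovered 98.9% of genes given a log2 change of 1 in all cells. Within types that share ran from 1.04% in striatal to 86.5% in intermediate progenitor-like cells, so 0 calls do not show that members were unchanged. Setd5 itself was called, at a log2 difference of -0.89 (95% interval -1.07 to -0.71, adjusted p = 0.00696). The median log2 difference was 0.02 over the 12 members and -0.00 over all genes.

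The 3 members with an unadjusted p under 0.05 in all cells were Pcdh17, Pcdh8 and Pcdh7. Pcdh17 held 0.253 and 0.257 (WT) and 0.193 and 0.184 (Setd5+/-) counts per 10000, with both Setd5+/- libraries below both WT libraries, a log2 difference of -0.30 (95% interval -0.48 to -0.12, adjusted p = 0.757). Pcdh8 held 0.279 and 0.21 (WT) and 0.332 and 0.324 (Setd5+/-), with both Setd5+/- libraries higher, a log2 difference of 0.32 (95% interval 0.07 to 0.57, adjusted p = 0.994). Pcdh7 held 0.282 and 0.298 (WT) and 0.255 and 0.213 (Setd5+/-), a log2 difference of -0.23 (95% interval -0.44 to -0.02, adjusted p = 0.994). Libraries of the 2 genotypes did not overlap for 5 of the 12 members, against 32% of all genes, and for 18 of the 77 pairs of member and type (5 of them among those 9), against 33.5% of all pairs. Fewer cells of a type and less RNA per cell cannot be told apart in these means over all cells. Lhx6 cells, where Pcdh17 was highest, made up 3.58% and 4.09% of WT cells and 3.10% and 2.15% of Setd5+/- cells, and deep-layer cells, where Pcdh8 was highest, 15.3% and 13.1% against 14% and 15.4%. Without the 224 cells of shared barcodes the log2 differences were -0.30 for Pcdh17, 0.33 for Pcdh8 and -0.22 for Pcdh7 (adjusted p = 0.697, 0.988 and 0.996). Without WT6 the Pcdh8 difference was 0.18 and without WT3 it was 0.47, and without Het9 that of Pcdh7 was -0.14. With the 9 tested types weighted alike, the log2 difference was -0.14 for Pcdh17 (adjusted p = 0.959), 0.19 for Pcdh8 (adjusted p = 0.959) and -0.14 for Pcdh7 (adjusted p = 0.97).

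Within types, Pcdh8 in deep-layer cells held 0.533 and 0.598 (WT) and 0.745 and 0.787 (Setd5+/-), a log2 difference of 0.38 (95% interval 0.09 to 0.67, adjusted p = 0.937), and in intermediate progenitor-like cells 0.117 and 0.0736 (WT) and 0.163 and 0.15 (Setd5+/-). The Setd5+/- mean of Pcdh8 was higher in 5 and lower in 3 of the 8 types, and that of Pcdh17 higher in 2 and lower in 6. Pcdh17 in deep-layer cells was at a log2 difference of -0.43 (95% interval -0.85 to -0.00, adjusted p = 0.937). Cdh13 in radial glia-like cells held 0.161 and 0.186 (WT) and 0.0829 and 0 (Setd5+/-). Pcdh8 in intermediate progenitor-like and Cdh13 in radial glia-like cells passed the filter only through the genotype with the higher level, so no difference is given for them. Neither deep-layer difference passed adjustment over all genes tested in that type.

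The X-linked members stand apart because the fetuses of the 2 genotypes also differed in sex genes. Xist, expressed from the inactive X, held 20.6 and 21.5 counts per 10000 in the WT libraries and 0.152 and 0.310 in the Setd5+/- libraries, and Ddx3y, on the Y chromosome, 0 and 0.000602 against 0.492 and 0.465. Sex and genotype can therefore not be told apart in any of these comparisons. Pcdh11x in cycling subpallial cells held 0.134 and 0.216 (WT) and 0.0553 and 0.0586 (Setd5+/-), and passed the filter there only through the WT libraries, so no difference is given. Pcdh19 held 0.0968 and 0.127 (WT) and 0.107 and 0.101 (Setd5+/-) in all cells, and the genotypes overlapped, with a log2 difference of -0.05 (95% interval -0.29 to 0.19, adjusted p = 0.994).

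**Figure D4:**
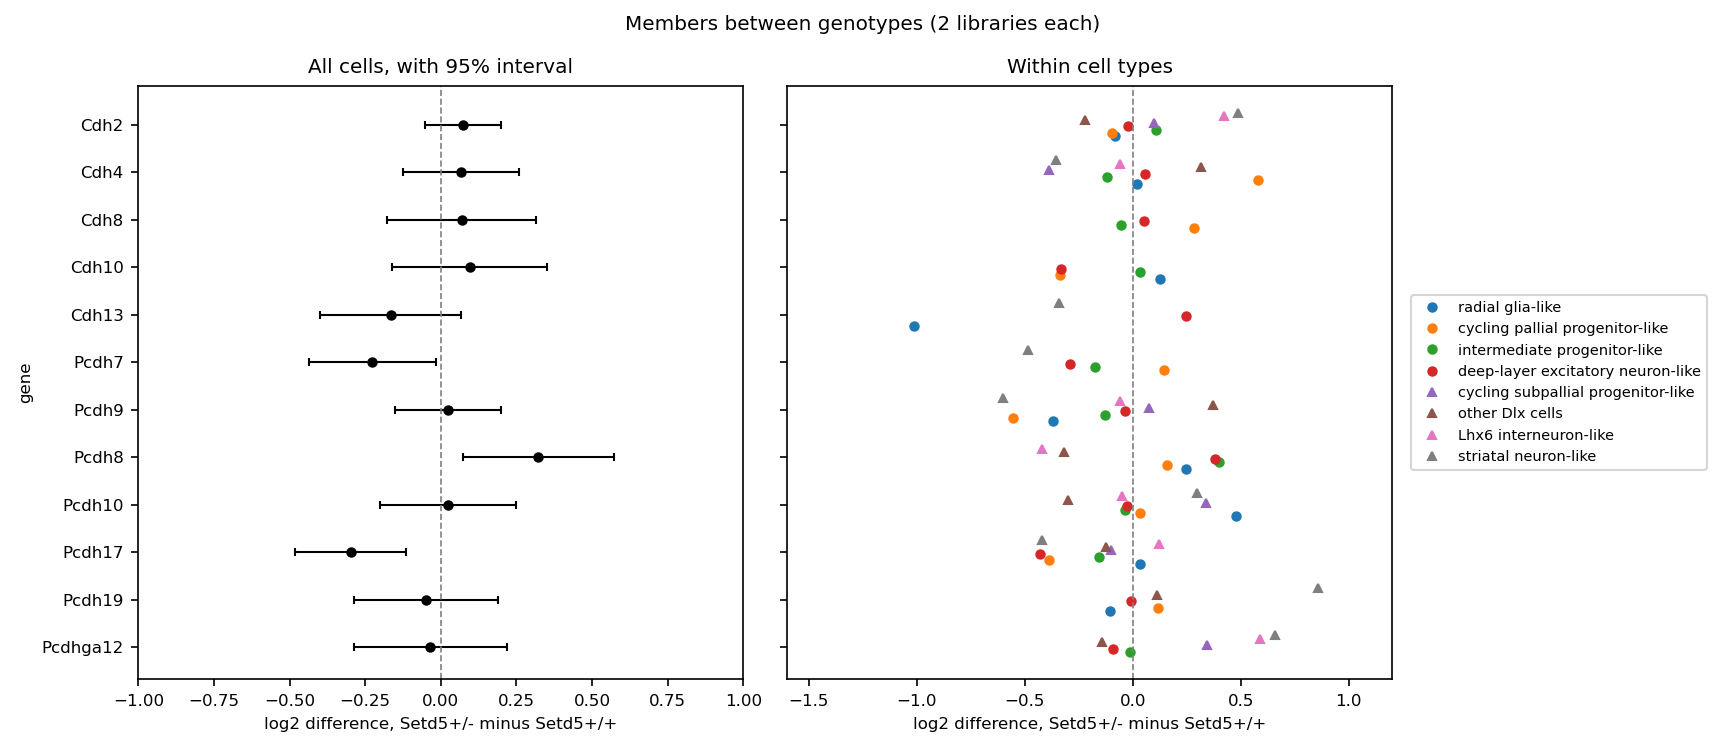
Log2 difference of the 12 tested members, Setd5+/- minus Setd5+/+. The left panel shows all cells with 95% interval, and the right each of 8 tested cell types where the member passed the filter. Circles are pallial types and radial glia-like cells, whose gate sets no side, and triangles are subpallial types. In all cells the intervals of Pcdh7, Pcdh8 and Pcdh17 lie off 0 before adjustment, and the values within types spread on both sides of 0, with the lowest, Cdh13 in radial glia-like cells, among the pairs that passed the filter only through 1 genotype.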

How the data were processed

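Single-cell libraries of 4 fetal cortices, 2 Setd5+/+ and 2 Setd5+/-, were made with the 10x 3′ v2 kit, and the submitters' processing notes name mm10, Seurat 2.3.0 and Cell Ranger 2.1. The authors deposited 1 table for all cells, holding UMI counts scaled to 10000 per cell, raised by 1 and then put on the natural log scale. Whole UMIs were recovered for 100% of 14848520 values above 0 (tolerance 0.001). Cell names carry a prefix that gives the genotype and not a replicate number of the labels. The gates on marker UMIs were set on recovered UMIs, a cell taking the first type it matched, and Kcnj8, 1 gate gene, has no row here. Doublets were called with Scrublet (scanpy 1.11.5) and kept (64 cells).

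Values were averaged per library and cell type as counts per 10000 (pandas 2.3.3, Python 3.11.15) and tested with limma 3.58.1 (R 4.3.3) on log2(mean + 0.1), with a trend, a mean of at least 0.1 and Benjamini-Hochberg adjustment over all genes tested, at a threshold of 0.05. Genotypes were compared 2 against 2, in all cells and within each type. Cell types were compared in 1 fit with library as a block and weights per cell type (limma arrayWeights). The weights were added because simulated data without them gave false calls in types with few cells. With weights, a simulated comparison of Lhx6 cells with the other types still gave 9 false calls among 8062 genes. It recovered 65% of genes changed by a log2 of 1. In the fit of cell types all 4 libraries of both genotypes enter together. Its p-values rest on how differences between types varied over the libraries, pooled over all tested types. They treat types of the same fetus as separate points and do not measure the spread between fetuses alone. Scripts were tested on simulated data. Genes were named by subfamily for every member that passed the filter, with counts for the rest. The members and lists were chosen with earlier results of these data known. UMIs count molecules, and intervals cover counting error only.

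Alternatives were pseudocounts of 0.01 and 1, no filter, summed UMIs, cells of shared barcodes or doublets removed, gates raised by 1 UMI or set on cells thinned to 3000 UMIs, each library left out and, chosen after seeing the data, no weights and types weighted alike. One of the 9 cell types in the fit, with its planned contrasts, is not reported here, and it stays in the mean of the other types. A planned contrast of Zic neuroblast-like cells was not run, since Het9 gave 3 such cells. Gene positions are from GENCODE M21 (GRCm38).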

Additional observations from a re-analysis of the deposited data

Results flagged for a closer look

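Cdh19, a type II cadherin of neural crest derivatives, stood out in cells that enter no comparison. In 133 melanocyte-like cells, gated on pigment genes, it averaged 0.217 counts per 10000 over the 4 libraries (0.0234 in WT3, 0.168 in WT6, 0.184 in Het5 and 0.491 in Het9). This was 14 UMIs of 749786, above the 0.0400 counts per 10000 that a count of 0 allows, while the 13 neural types held 1 UMI of 31349200. Of these melanocyte-like cells, 127 carried a barcode found in all 4 libraries, so the 4 values are not those of separate fetuses.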

How the results depend on the processing

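No paired analysis was possible because the cell names carry no replicate numbers shared with the labels. This concerns the genotypes, since cell types were compared within libraries. Of 66 called differences between cell types, 43 kept their call under all 13 settings that could be run for them and 23 lost it at least once, with no change of direction among them. The 54 called pairs of member and type became 88 without a filter on low values, where more members were tested, and were 44 to 56 with a library left out. Between genotypes, 0 pairs were called under each setting except without Het9, where 3 were, all in striatal neuron-like cells (Pcdh7, -2.03, adjusted p = 0.0206; Cdh2, 0.82, adjusted p = 0.035; Pcdhb21, 2.79, adjusted p = 0.00238), so the range over left-out libraries was 0 to 3 pairs. The lone Setd5+/- library is there assumed to vary like the others. That library, Het5, gave 24 striatal cells, held all striatal counts of Pcdhb21 and no count of Pcdh7, and Pcdhb21 passed the filter through Het5 alone, so its call is set by the filter. The direction of striatal Pcdh7 turned with the library left out, from -2.03 without Het9 to 1.06 without Het5 (adjusted p = 0.109). In all cells 0 members were called under each setting run, and adjusted p for Pcdh17 ranged from 0.443 to 0.999 and for Pcdh8 from 0.332 to 0.999.

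Between striatal and Lhx6 cells 2 members were called, and 0 to 2 with a library left out, where Cdh13 took the place of Pcdh7 without Het9 (1.75, adjusted p = 0.00531), with 1 at a pseudocount of 0.01 and 5 without weights. The cause was not tested. For striatal cells, the gates raised by 1 UMI or set on thinned cells left too few cells for the contrast with Lhx6 cells. A count of 0 allows up to 0.0361 counts per 10000 in striatal and 0.0353 in Lhx6 cells.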
